A study of Mus musculus with 6 samples.

Results

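The genes described here are transcriptional targets of the coactivator YAP and markers of the invasive, dedifferentiated melanoma state. They were chosen as a list of 10 mouse symbols, matched to the first column of the count table: *Cyr61*, *Ctgf*, *Thbs1*, *Amotl2*, *Ankrd1*, *Tead1*, *Axl*, *Ngfr*, *Sox9* and *Fosl1*. Of these 10, 9 have a row among the 18324 gene rows. *Fosl1*, which encodes a FOS-family subunit of the AP-1 transcription factor, was not analysed here. The cells were B16-F10, an established mouse melanoma line grown in serum-containing medium, sorted by flow cytometry on the light scatter of their melanin. The groups were high-pigmented cells (HPC) and low-pigmented cells (LPC), with 3 libraries each and no treatment named in the labels beyond the sort itself. Each title ends in a suffix that 1 library of each group shares: 16-9-15 for pair 1, 18-8-14 for pair 2 and 1-9-14 for pair 3. RNA was read from near the 3′ end of transcripts, so a count does not grow with transcript length.

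YAP and its relative TAZ have no DNA-binding domain of their own and act on genes through TEAD transcription factors. The Hippo kinase cascade phosphorylates both coactivators and holds them in the cytoplasm. In melanoma, high AXL and NGFR with low MITF activity mark cells that invade, resist targeted drugs and make little pigment, while high MITF activity marks the differentiated, pigmented state. The comparison of sorted cells therefore asks whether these transcripts differ with the melanin content of cells within a single line.

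Many YAP-responsive promoters carry the TEAD recognition motif GGAATG, which reads CATTCC on the opposite strand. Of the 9 genes, 5 (*Cyr61*, *Amotl2*, *Ankrd1*, *Axl* and *Ngfr*) matched a RefSeq promoter window on GRCm38.p6, and the 250 bases before the RefSeq transcription start were searched for the motif on both strands. A match was found in 4 of them, the exception being *Ngfr*. Of all 32851 RefSeq windows of this length, 12.6% hold at least 1 match and 1.02% hold at least 2, as *Ankrd1* does. The matches are shown as the letters through which TEAD factors are known to recognise DNA. Each line gives 30 bases 5′ to 3′ on the strand of the gene, with the motif in capitals. They lie at chr3:145650071-145650100 (minus strand) for *Cyr61*, chr9:102717727-102717756 (plus) for *Amotl2*, chr7:25788949-25788978 (minus) for *Axl*, and chr19:36120037-36120066 and chr19:36119950-36119979 (both minus) for *Ankrd1*.
Cyr61: cgcgccaaccaaCATTCCtgagatgtttga
Amotl2: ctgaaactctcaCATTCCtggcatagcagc
Axl: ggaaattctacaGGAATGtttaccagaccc
Ankrd1 first match: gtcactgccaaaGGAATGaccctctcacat
Ankrd1 second match: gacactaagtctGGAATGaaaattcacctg
The motif begins 103 bases before the RefSeq start in *Cyr61*, 65 in *Amotl2*, 233 in *Axl*, and 210 and 123 in *Ankrd1*. The stretches of *Amotl2* and *Ankrd1* overlap exons that GENCODE M21 annotates for these genes, so they lie inside a longer annotated transcript. A match describes these letters and does not show that TEAD binds there.

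Libraries held between 3819605 and 7311131 gene counts. Pair 2 stood apart in composition, since a single row, RP23-81C12.3, took 53.9% of gene counts in its HPC and 27.1% in its LPC library, against 3.54% to 5.03% elsewhere. Its HPC and LPC libraries had fewer genes with a count, 10620 and 12778, against 14130 to 15002 elsewhere. Mitochondrial rRNA took 12.2% and 7.69% of their gene counts, against 1.51% to 1.99% elsewhere. What these traits did to the values of pair 2 was not tested. After normalisation 1 count in the HPC library of pair 2 was worth 0.582 CPM (counts scaled to a common normalised library size), against at most 0.286 CPM in any other library. Sums over a few genes that mark other cell types were also higher in that library. Fibroblast markers (3 of 5 listed genes with a row) summed to 33.2 CPM there and to 0.935 to 5.29 CPM in the other 5 libraries. Endothelial markers (2 of 4) summed to 11.6 CPM against 0 to 1.26 CPM, leukocyte markers (2 of 5) to 7.57 CPM against 0 to 0.826 CPM, and epithelial markers (2 of 4) to 15.1 CPM against 0.496 to 6.43 CPM. Among these markers *Col1a1*, *Tek* and *Epcam* were at 0 counts there, and the leading ones were *Pdgfra* with 36 counts, *Cdh1* with 26, *Col1a2* with 21 and *Pecam1* with 20. The epithelial sum there was thus *Cdh1* alone and the endothelial sum *Pecam1* alone. *Cdh1* also had 55 counts in the HPC library of pair 3. Their part in the results of pair 2 was not tested. Fitted values of the tested members are given with and without pair 2. The melanocyte lineage genes, which check the labelled cell type, summed to between 4605 CPM (HPC, pair 2) and 21226 CPM (HPC, pair 3). Most of both sums was a single gene, *Dct*, with 4002 and 14178 CPM in these libraries.

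**Figure D1:**
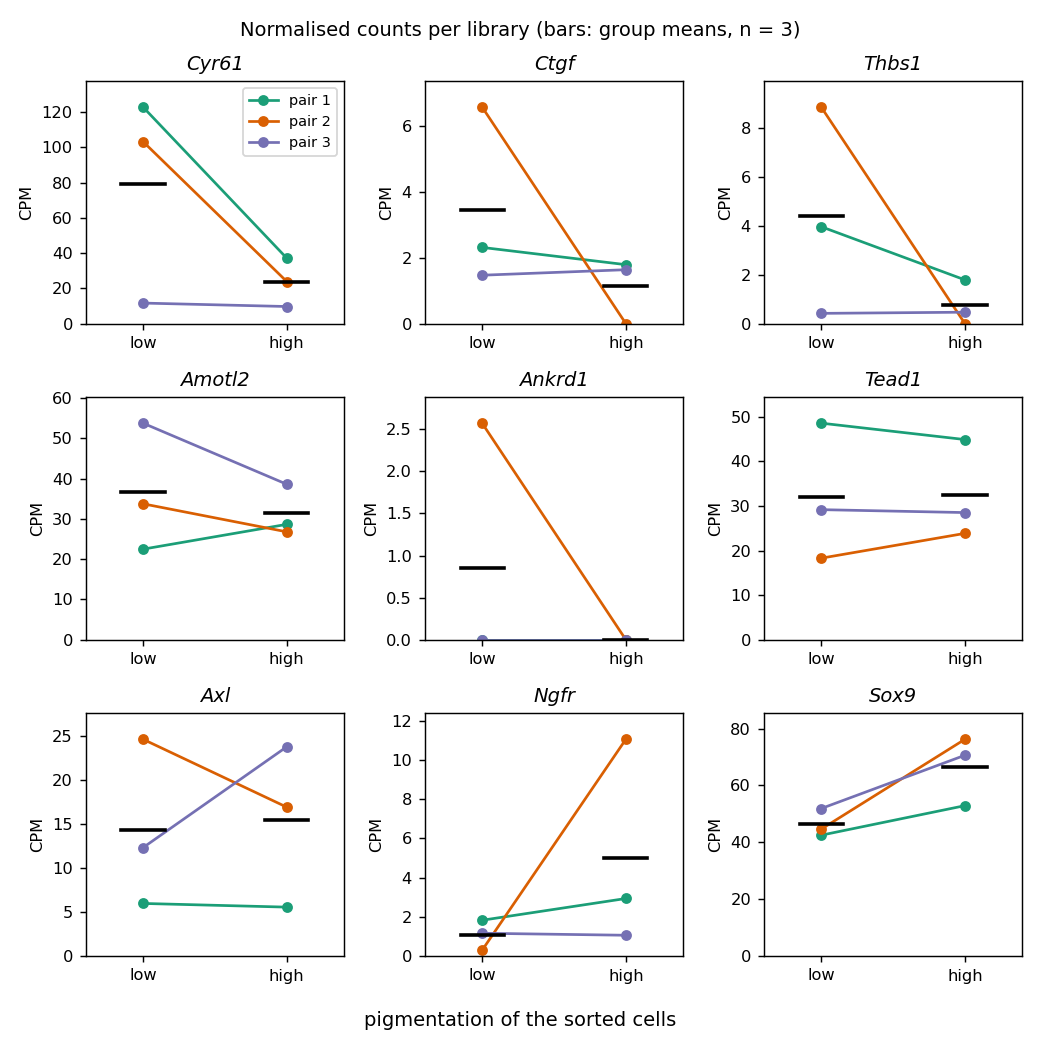
Normalised counts (CPM, linear axis from 0) of the 9 genes in each library, with low-pigmented cells on the left, high-pigmented cells on the right, a line joining the libraries of a pair and black bars for group means (n = 3). In each pair the HPC point is the lower one for *Cyr61* and the upper one for *Sox9*, while *Ctgf*, *Thbs1*, *Ankrd1* and *Ngfr* spread most in pair 2 (orange); the pair 1 points of *Ankrd1* lie at 0 under those of pair 3.

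Abundance differed widely between the genes. *Sox9* (56.4 ± 13.9 CPM, SD over 6 libraries), *Cyr61* (51.4 ± 49.1 CPM), *Amotl2* (34.0 ± 11.2 CPM) and *Tead1* (32.2 ± 12.0 CPM) were the most abundant, and each neighbour in this order differed by less than the larger of their SDs. *Axl* followed at 14.8 ± 8.37 CPM, apart from both neighbours in the order by more than that spread. *Ngfr* (3.05 ± 4.02 CPM), *Thbs1* (2.58 ± 3.40 CPM), *Ctgf* (2.30 ± 2.23 CPM) and *Ankrd1* (0.429 ± 1.05 CPM) were near the limit of detection, and their neighbouring levels did not differ beyond the SDs. The 4 least abundant genes held between 9 and 76 counts each over all 6 libraries, so single counts move those values.

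No member was called between HPC and LPC by the test across all genes, which compared the groups without the pairs. Of the 9, 8 passed the filter on low counts, and 0 of the 8 reached an adjusted p below 0.05 (edgeR, Benjamini-Hochberg over all genes), where 0% of all 11324 genes tested were called. Members with an unadjusted p under 0.05 numbered 0, against 38 genes in all. The adjusted p of each of the 8 was 0.9996. DESeq2 called 0 members as well, and 0 of all 11324 genes. In that fit 1 member (*Cyr61*) had an unadjusted p under 0.05, against 134 genes in all. The median log2 fold change of the 8 (HPC over LPC) was -0.10, beside -0.04 over all genes, and 4 of the 8 were above 0. With 3 libraries a group and a biological coefficient of variation of 71.6%, this fit recovered 0% of 8-fold changes simulated without pair differences. The absence of calls therefore does not show equal expression.

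**Figure D2:**
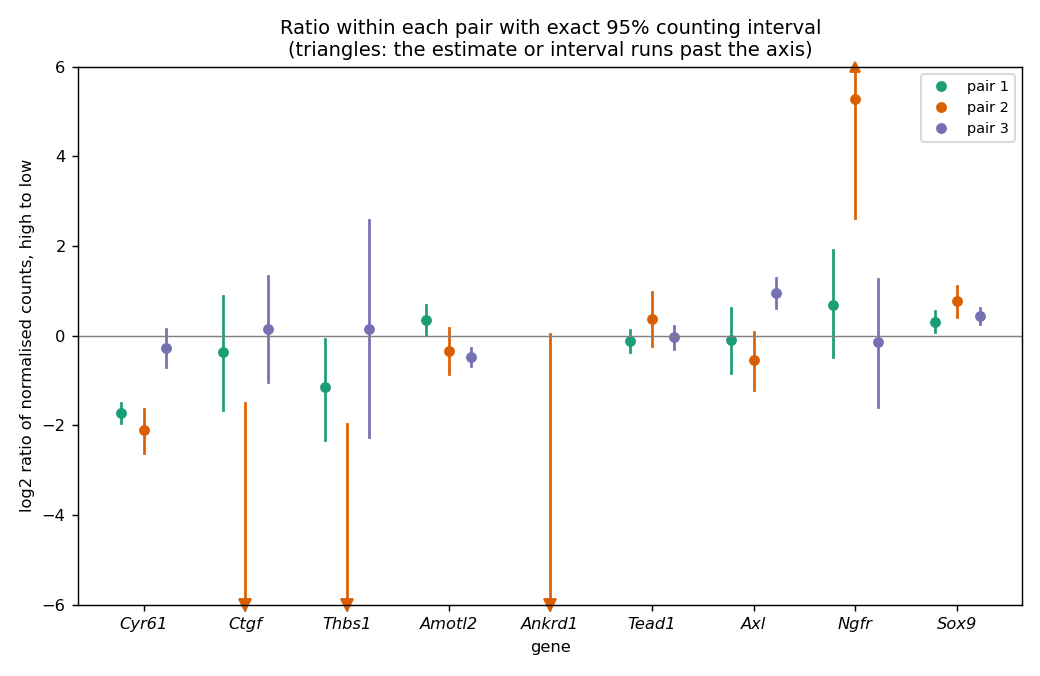
Ratio of normalised counts, high-pigmented over low-pigmented, within pairs 1, 2 and 3 for each gene on a log2 axis, with exact 95% counting intervals as bars. A triangle pointing down marks a high-pigmented count of 0, and the one pointing up marks an interval that runs past the axis; *Sox9* lies above 0 in each pair and the intervals of *Tead1* include 0 in each pair.

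*Cyr61* encodes the secreted matricellular protein CCN1 and is among the best known direct YAP/TEAD targets (GRCm38 chr3:145646976-145649981, minus strand, GENCODE M21). Its normalised counts were 37.1, 23.9 and 9.70 CPM in HPC and 123, 103 and 11.7 CPM in LPC of pairs 1, 2 and 3. Both libraries of pair 3 were low, so the groups overlapped, although the HPC library was the lower one in every pair. *Cyr61* was 3.31-fold lower in HPC in pair 1 (exact 95% interval 2.85 to 3.86), 4.32-fold lower in pair 2 (3.13 to 6.13) and 1.20-fold lower in pair 3 (0.895 to 1.62). These intervals cover counting error between 2 libraries only. Group means were 23.6 ± 13.7 CPM in HPC and 79.2 ± 59.3 CPM in LPC (SD, n = 3 each). The fitted log2 fold change was -1.75 ± 0.85 (SE). The value was largest in pairs 1 and 2 and its interval in pair 3 included no difference. *Cyr61* was 1 of 8 tested members lower in HPC in every pair, as were 17.2% of all genes tested, so that count is near the background.

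Fits with the pairs as a block moved *Cyr61* closer to the threshold without passing it. The edgeR fit without pair 2 and without the block did not. It gave -1.54 ± 1.29 (log2 fold change ± SE), with an unadjusted p of 0.296 against 0.0726 in the main fit. With the pairs as a block, which called 0% of all genes, edgeR estimated -1.38 ± 0.45 (log2 fold change ± SE, unadjusted p 0.0299, adjusted p 0.927). In that fit *Cyr61* was the 1 member with an unadjusted p under 0.05, beside 213 of all 11324 genes. Leaving out pair 2 from the block fit, where 1.30% of 11906 genes were called, gave -1.12 ± 0.30 (SE, unadjusted p 0.00306, adjusted p 0.122). limma-voom with sample weights and the block, which called 0.300% of genes, gave -1.42 ± 0.27 (SE, adjusted p 0.0519). None of the 8 tested members was called in any of these fits.

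*Ctgf* encodes CCN2, a matricellular protein related to CCN1, and *Thbs1* encodes thrombospondin-1, an adhesive glycoprotein; both are YAP/TEAD targets (chr10:24595442-24598683 and chr2:118111876-118127133, plus strand). *Ctgf* had 11, 0 and 14 counts in HPC and 14, 23 and 14 counts in LPC of pairs 1, 2 and 3. *Thbs1* had 11, 0 and 4 counts in HPC and 24, 31 and 4 counts in LPC. The pattern of both was led by pair 2, where the HPC library had no count, which allows up to 1.75 CPM (3 counts), and the LPC library held the highest value of the 6. In pair 3 counts were equal between groups for either gene. In pair 1 *Thbs1* was 2.22-fold lower in HPC (exact 95% interval 1.05 to 5.01), and the ratio of *Ctgf* was not distinguishable from 1 at this depth (1.29-fold lower, 0.545 to 3.15).

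The fitted log2 fold changes were -1.45 ± 1.32 (SE) for *Ctgf* and -2.37 ± 1.52 (SE) for *Thbs1*, with overlapping groups. Without pair 2 and with the block they were -0.11 ± 1.00 and -0.64 ± 1.18. *Ctgf* shares up to 347 nearly identical bases with the opposite-strand gene *Gm15270*, which has a row of its own, and *Thbs1* shares 111 with *Gm29233*. Use of strand in the counting is not stated, so how reads within these shared stretches were assigned is not known.

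*Ankrd1*, a cardiac ankyrin-repeat protein gene widely used as a YAP reporter (chr19:36111961-36120099, minus strand), had 9 counts in the LPC library of pair 2 and 0 counts in each of the other 5 libraries. It did not pass the filter and was not tested. In pair 2 the exact 95% interval of the ratio of HPC to LPC ran from 0 to 1.03 and so included 1, and without pair 2 no count remained in either group. The 3 genes *Ctgf*, *Thbs1* and *Ankrd1* thus had their highest values in the same LPC library, where 1 count was worth 0.286 CPM.

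*Amotl2*, an angiomotin-family scaffold that binds YAP and is itself a target (chr9:102716672-102733418, plus strand), had no common direction across the pairs. It had 28.6, 26.8 and 38.6 CPM in HPC and 22.5, 33.7 and 53.7 CPM in LPC. It was 1.27-fold higher in HPC in pair 1 (exact 95% interval 1.01 to 1.61), and 1.39-fold lower in pair 3 (1.21 to 1.60), with the interval of pair 2 including 1. The groups overlapped, with a log2 fold change of -0.22 ± 0.48 (SE). With the block and without pair 2 it was -0.11 ± 0.23, and it was 0.17 without the LPC library of pair 3, which was the highest of the 6.

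*Tead1* encodes the DNA-binding partner of YAP (chr7:112679318-112906807, plus strand). It had 44.9, 23.9 and 28.5 CPM in HPC and 48.6, 18.3 and 29.2 CPM in LPC. Pair 1 was highest and pair 2 lowest in both groups. The interval of the within-pair ratio included 1 in each pair, and the log2 fold change was 0.02 ± 0.52 (SE). In the block fit without pair 2 it was -0.08 ± 0.20.

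The list holds 2 receptors of the invasive state. *Axl*, a receptor tyrosine kinase that marks invasive and drug-tolerant melanoma cells and is also listed as a YAP target (chr7:25757273-25788705, minus strand), had 5.53, 16.9 and 23.7 CPM in HPC and 5.95, 24.6 and 12.28 CPM in LPC. *Axl* was 1.93-fold higher in HPC in pair 3 (exact 95% interval 1.53 to 2.45), and the intervals of pairs 1 and 2 included 1. The groups overlapped and the log2 fold change was 0.11 ± 0.80 (SE). With the block and without pair 2 it was 0.49 ± 0.37. It was -0.37 without the HPC library of pair 3, -0.25 without the LPC library of pair 1 and 0.75 without the LPC library of pair 2.

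*Ngfr*, the low-affinity nerve growth factor receptor and a neural-crest marker (chr11:95568818-95587735, minus strand), had 18, 19 and 9 counts in HPC and 11, 1 and 11 counts in LPC. The HPC library of pair 2 was the highest at 11.1 CPM and the LPC library of pair 2 the lowest at 0.286 CPM. The ratio in that pair was 38.7, with an exact 95% interval of 6.15 to 1607 because it rests on a single LPC count, and in pairs 1 and 3 the interval included 1. Its log2 fold change was 2.11 ± 1.32 (SE) with all libraries, and 0.28 ± 1.05 with the block and without pair 2. The same HPC library held the highest summed fibroblast, endothelial, leukocyte and epithelial markers. The endothelial and epithelial sums there were *Pecam1* and *Cdh1* alone, and whether *Ngfr* came from other cells was not tested.

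*Sox9*, a transcription factor of the neural crest that opposes the melanocyte factor SOX10 in melanoma (chr11:112782224-112787760, plus strand), was higher in the HPC library of every pair, opposite to *Cyr61*. It had 52.9, 76.2 and 70.6 CPM in HPC and 42.5, 44.6 and 51.9 CPM in LPC, so every HPC library lay above every LPC library. The gap between the lowest HPC and the highest LPC library, 52.9 against 51.9 CPM, was small. *Sox9* was 1.25-fold higher in HPC in pair 1 (exact 95% interval 1.05 to 1.47), 1.71-fold higher in pair 2 (1.34 to 2.17) and 1.36-fold higher in pair 3 (1.21 to 1.54). Means were 66.6 ± 12.2 CPM and 46.3 ± 4.92 CPM (SD, n = 3 each). The fitted log2 fold change was 0.52 ± 0.37 (SE).

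With the pairs as a block *Sox9* changed by 0.51 ± 0.23 (adjusted p 0.927 in edgeR), with the block and without pair 2 by 0.37 ± 0.19 (adjusted p 0.439), and in limma-voom with weights and the block by 0.40 ± 0.18 (adjusted p 0.402). *Sox9* was the 1 tested member of 8 with no overlap between the groups in this direction, which 2.43% of all genes tested showed. In the opposite direction 0 of 8 had no overlap, against 3.31% of all genes. *Sox9* was also 1 of 8 higher in HPC in every pair, against 12.9% of all genes, a share close to the background.

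**Figure D3:**
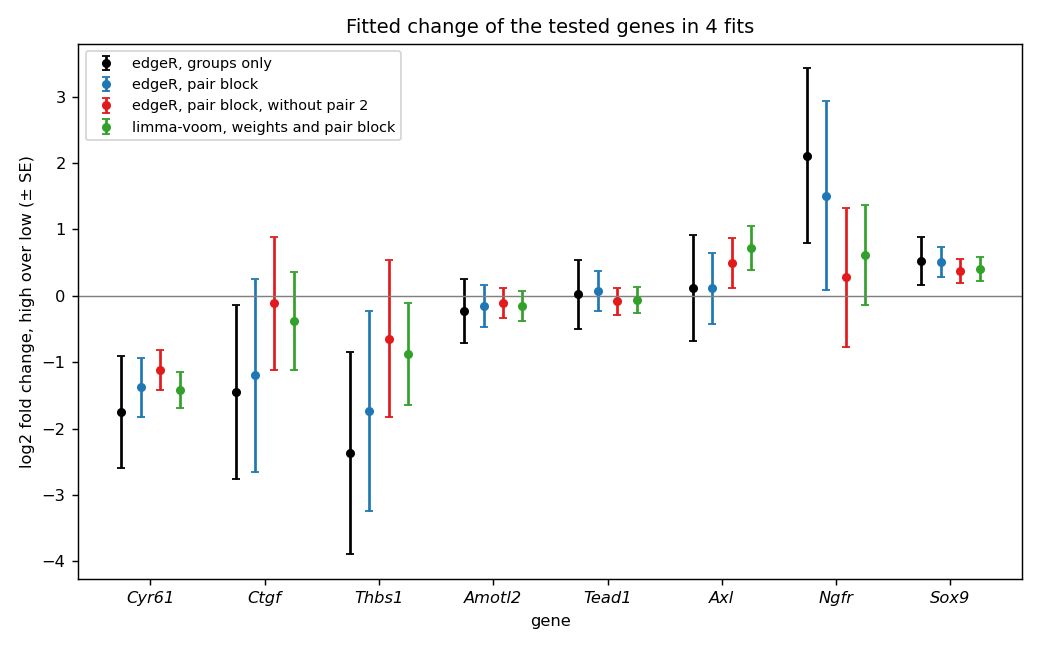
Fitted log2 fold change (HPC over LPC, with SE) of the 8 tested genes in edgeR with the groups only, edgeR with the pairs as a block, the block without pair 2, and limma-voom with sample weights and the block. *Cyr61* stays below 0 and *Sox9* above 0 in each of these fits, and *Ctgf*, *Thbs1* and *Ngfr* move toward 0 when pair 2 is left out; no point is a call at an adjusted p under 0.05.

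The other parts of the pathway were read from lists chosen with earlier results of these data known, with Hippo regulators and effectors first. Of 28 listed genes 28 had a row and 26 were tested. None was called in either direction, 0 had an unadjusted p under 0.05, 17 were above 0 and the median log2 fold change was 0.12. Within pairs 1, 2 and 3 the median difference of these genes was -0.05, 0.55 and -0.02, beside 0.02, -0.20 and -0.0024 over all genes. With the block and without pair 2 the median was -0.11, with 8 of 26 above 0. The genes with the smallest p were *Stk3*, which encodes the Hippo kinase MST2 (0.81 ± 0.55), *Wwtr1*, which encodes TAZ (0.63 ± 0.44), and *Frmd6*, an upstream regulator (0.68 ± 0.58; log2 fold change ± SE, adjusted p 0.9996 each in edgeR). With the block and without pair 2 they were 0.11 ± 0.24, 0.12 ± 0.21 and 0.0015 ± 0.25.

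The coactivator genes themselves were expressed in all 6 libraries. *Wwtr1* had 37.7, 71.0 and 38.0 CPM in HPC and 35.7, 25.2 and 33.5 CPM in LPC, with no overlap between the groups, as 1 of the 26 tested genes of the list and 2.43% of all genes had in this direction. Its within-pair log2 differences were 0.08, 1.48 and 0.18. *Yap1*, singled out after its values were seen, had 16.9 to 108 CPM in HPC and 33.4 to 131 CPM in LPC. Its lowest values were those of pair 2 in both groups, the groups overlapped, and its log2 fold change was -0.20 ± 0.73 (SE).

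Of 15 other YAP and TEAD targets 11 had a row and 10 were tested, with 0 called, 0 at an unadjusted p under 0.05, 4 above 0 and a median of -0.13. *Crim1*, a transmembrane regulator of growth factor signalling, had the smallest p, with 17.8 ± 4.16 CPM in HPC and 35.9 ± 22.8 CPM in LPC (SD, n = 3 each). Its fitted log2 fold change was -1.01 ± 0.58 (SE). Its within-pair log2 differences were -0.13, -2.12 and -0.30, so it was lower in HPC in each pair and most of the size came from pair 2. That held for 1 of the 10 tested genes of this list and for 17.2% of all genes tested. None of the 10 was higher in HPC in every pair. In the block fit without pair 2 *Crim1* was -0.23 ± 0.26. *Tgfb2* (0.34 ± 0.75), a growth factor gene, and *F3* (-0.54 ± 1.37), which encodes tissue factor, had the next smallest p among genes of at least 10 CPM, and were -0.36 ± 0.42 and -0.11 ± 0.31 in the block fit without pair 2. Within pairs 1, 2 and 3 the median difference of this list was -0.41, 0.23 and 0.05, so it had no common direction.

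Other invasive-state genes were not called either. Of 24 listed, 18 had a row and 12 were tested, with 0 called, 0 at an unadjusted p under 0.05 and a median of -0.06. *Nes*, the intermediate filament nestin of neural progenitors (-0.92 ± 0.64), *Cd44*, a hyaluronan receptor (0.27 ± 0.44), and *Tcf4* (0.25 ± 0.48) had the smallest p among those of at least 10 CPM. *Nes* had 22.0, 9.89 and 11.7 CPM in HPC and 26.4, 44.0 and 12.7 CPM in LPC, lower in HPC in each pair and by most in pair 2. Of the 12, 2 were lower in HPC in every pair, against 17.2% of all genes tested. Another 2, *Cd44* among them, were higher in every pair, against 12.9%. Leaving out pair 2 in the block fit gave -0.21 ± 0.28, 0.21 ± 0.15 and -0.23 ± 0.20 for *Nes*, *Cd44* and *Tcf4* in turn. *Egfr*, named after its values were seen, had 26 counts in the LPC library of pair 2 and 0 in the other 5, the distribution of *Ankrd1*.

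*Cyr61*, *Ctgf* and *Thbs1* also belong to the genes that serum and cell stress induce within minutes, so AP-1 and immediate early genes were examined beside them. Of 21 listed, 20 had a row and 17 were tested, with 0 called, 0 at an unadjusted p under 0.05 and a median of 0.05. *Btg2* (1.69 ± 1.02), *Fosl2* (-0.64 ± 0.66) and *Egr1* (-0.41 ± 0.74) had the smallest p among those of at least 10 CPM. In the block fit without pair 2 these were 0.40 ± 0.41, -0.31 ± 0.23 and 0.47 ± 0.38. Summed levels of the list overlapped, from 730 to 858 CPM in HPC and from 656 to 958 CPM in LPC. Without pair 2 and with the block, 1 of 18 passed, where 1.30% of all genes were called. It was *Fos*, which rose in HPC by 1.90 ± 0.46 (log2 fold change ± SE, adjusted p 0.0397 in edgeR). *Fos* had 77, 2 and 107 counts in HPC and 31, 44 and 20 counts in LPC, so it was higher in HPC in pairs 1 and 3 and went the other way in pair 2.

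Melanocyte lineage and pigment genes give the state opposite to the invasive one. Of 14 listed, 12 were tested with 0 called, a median of 0.12 and 9 above 0. *Pmel*, the melanosome fibril protein gene (0.71 ± 1.06), *Zeb2* (-0.36 ± 0.55) and *Mc1r* (0.28 ± 0.63) had the smallest p. With the block on all 6 libraries the median of the list was -0.03, with 5 of the 12 above 0. With the block and without pair 2 the median was 0.22, with 11 of the 12 above 0. Without pair 2 and with the block *Zeb2* was 0.09 ± 0.18 and *Mc1r* 0.42 ± 0.16. In the block fit without pair 2, *Pmel* alone of the 12 passed, higher in HPC by 0.74 ± 0.11 (adjusted p 0.000811 in edgeR), beside 1.30% of all genes called. In pair 2 the median of this list was -0.85, against 0.19 and 0.12 in pairs 1 and 3, and 2 of the 12 were higher in the HPC library of that pair.

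**Figure D4:**
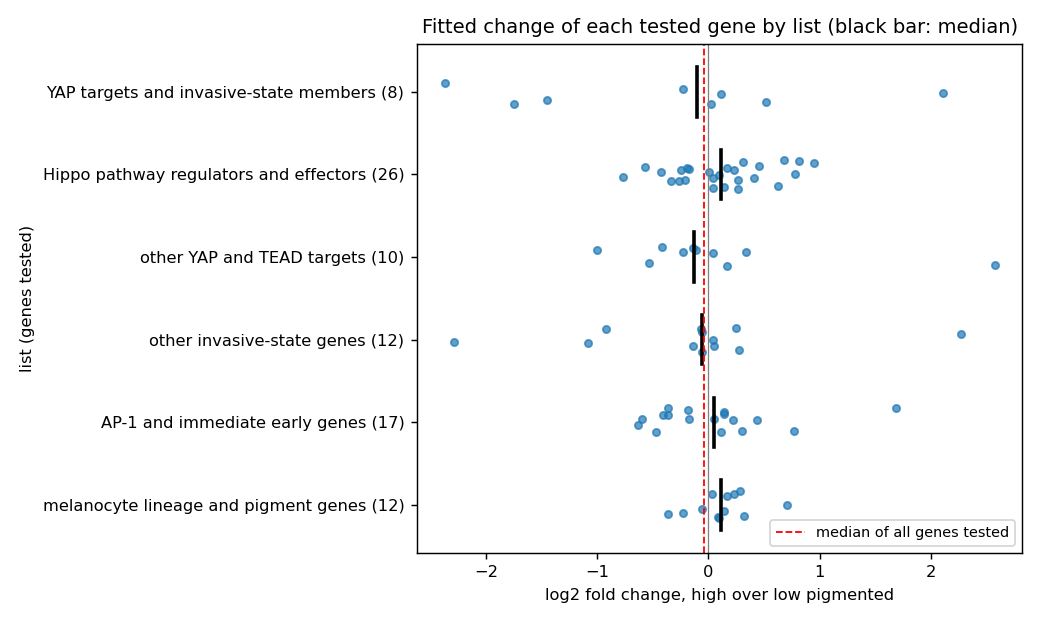
Fitted log2 fold change (HPC over LPC, edgeR with the groups only) of each tested gene, by list, with the number tested in brackets, a black bar for the list's median and a dashed line for the median of all genes. The medians of the lists lie between -0.13 and 0.12; vertical scatter within a list carries no value.

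Members were also compared by their profile over the 6 libraries. *Cyr61* and *Sox9* had a Pearson correlation of log2 CPM of -0.73, *Cyr61* and *Amotl2* one of -0.68, and *Tead1* and *Axl* one of -0.91. These were the strongest between members of at least 10 CPM, and the others ran from -0.39 to 0.44. Among 7782 tested genes of at least 10 CPM, those with the highest correlation to *Cyr61* were *Tpm3-rs7* (0.96) and *Bmpr1a* (0.96). For *Sox9* they were *Fbxl5* (0.99) and *Zfp523* (0.98), for *Amotl2* *Sh3bp5l* (0.98) and *Zfyve20* (0.98), for *Axl* *Dvl2* (0.99) and *Zmiz1* (0.99), and for *Tead1* *Atp5b* (0.996) and *H2afz* (0.99). These are descriptions over 6 libraries that share 3 pairs and the composition of pair 2. The genes were picked as the highest among 7782 over few libraries, so their correlations are high by that choice and do not show shared regulation.

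The table's second column, of human symbols, would mislead for this gene set. Of the 9 genes, 4 carry the symbol of a different human gene: *Axl* is listed under TYRO3, *Ngfr* under TNFRSF10D, *Tead1* under TEAD4 and *Thbs1* under THBS3. The mouse gene *Tead4*, with the same human symbol as *Tead1*, had 108 counts over the 6 libraries against 1197 for *Tead1*. *Sox10* is listed under SOX9, the symbol that *Sox9* also carries. Every value above follows the mouse symbol.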

How the data were processed

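The authors deposited unnormalised read counts for each gene in each library, made with HTSeq, per the file's name and tally rows. STAR and GRCm38 are named in the submitters' processing notes. Versions, annotation, counting mode and use of strand are not given in the sources used here. Tally rows, 12.4% to 29.5% no-feature and 0.487% to 2.51% ambiguous reads, were left out. The members and lists were chosen with earlier results of these data known.

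All genes were fitted with edgeR 4.0.16 in R 4.3.3 (filterByExpr with a minimum count of 10, TMM, robust quasi-likelihood test of the 2 groups) and adjusted by the Benjamini-Hochberg method with a threshold of 0.05. CPM values use TMM-scaled library sizes, and within-pair log2 differences add a prior count of 2. The SE of an edgeR fit was derived as the absolute log2 fold change over the square root of its F statistic. It is approximate, above all for genes with counts of 0. Within-pair ratios have exact Clopper-Pearson intervals, which like the zero limit (3 counts) cover counting error only. No source says that libraries came from separate cultures, so p-values measure the spread between these libraries, which may be technical. Alternatives used the pair block, DESeq2 1.42.0, limma 3.58.1 and other filters, normalisations and subsets of libraries.

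Libraries sharing a title suffix deviated together from their group means (correlations across genes 0.466, 0.316 and 0.422, each above the minimum of 0.1), so the suffix was taken as pairing them. Every 2 libraries differed by more than sampling noise (smallest chi-square over its degrees of freedom, 14.6). On simulated counts with 200 changed genes, the fit without a block recovered 0% of 2-, 4- and 8-fold changes over 11324 genes, and the block 1.49%, 31.3% and 54.5%. The block without pair 2 recovered 29.9%, 64.2% and 86.4% over 11906 genes. Each fit was run on counts simulated from its own model and dispersions, with no pair differences for the fit without a block. These shares therefore do not compare the fits on the same data.

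Every member was named. Each other list contributed up to 3 genes of at least 10 CPM with the smallest p, plus those passing with the block and without pair 2. The 2 most correlated genes were named for members of at least 10 CPM. Shared sequence means at least 100 bases at 95% identity in GENCODE M21 transcripts. Promoter sequences are from RefSeq (GRCm38.p6).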

Additional observations from a re-analysis of the deposited data

How the results depend on the processing

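No member was called under any alternative run. The count over all genes moved from 0 to 155 with the replicate block and without pair 2 and to 34 with limma-voom, sample weights and the replicate block, and was 0 in the others. Without pair 2 and with the block, *Fos* and *Pmel* were called in their lists, *Pmel* also with limma-voom (adjusted p 0.00517); with the replicate block on all 6 libraries these counts stayed at 0. *Tead1* (0.02) turned to -0.084 with the block and without pair 2, -0.093 without pair 2 and no block, and -0.070 in limma-voom. Leaving out each library in turn gave log2 fold changes from -0.30 to 0.45 for *Tead1*, -0.48 to 0.17 for *Amotl2*, -0.37 to 0.75 for *Axl*, -2.27 to -1.27 for *Cyr61*, -1.85 to -0.60 for *Ctgf*, -3.77 to -1.37 for *Thbs1*, 0.82 to 2.66 for *Ngfr* and 0.42 to 0.65 for *Sox9*. The reversals of *Tead1*, *Amotl2* and *Axl* lie within 1 SE of their own fit, and the cause was not tested. Depth limits *Ctgf*, *Thbs1*, *Ngfr* and *Ankrd1*, with 9 to 76 counts each over all libraries. The alternatives were listed with earlier results of these data known.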
